A study of Mus musculus with 39 samples.

Results

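Nuclear-encoded oxidative phosphorylation genes are the genes of the cell nucleus whose products build the respiratory chain and the ATP synthase of mitochondria. They were taken from the RNA tables by symbol: every gene whose name begins with Nduf, Uqcr or Atp5, or with Cox followed by a digit from 4 to 8, together with Sdha, Sdhb, Sdhc and Sdhd. This rule used no measured value and found 92 of the 24421 genes in the tables, of which 45 belong by name to complex I, 4 to complex II, 8 to complex III, 18 to complex IV and 17 to complex V. The rule also takes the assembly factors of complex I with an Ndufaf name and leaves out subunits with other names, such as Cyc1.

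The nuclei came from the neocortex of male and female mice aged 13 to 16 weeks that carried Arc-creERT2(TG/WT) together with R26 CAG-Sun1-sfGFP-Myc, either as M/M or as M/WT. All groups shared these alleles and the treatment. Tamoxifen was injected at 150 mg/kg 5 h before a social interaction test, so that cells with an active Arc promoter in that period recombined and carried the Sun1-sfGFP nuclear membrane tag, which marks cells that expressed this transgene. Tagged nuclei were isolated either by INTACT, the affinity method, in which antibody-coated magnetic beads pull down the green nuclei, or by FANS (fluorescence-activated nuclei sorting), in which a flow sorter collects them. RNA libraries were made from 10000 nuclei each in 3 batches, each a distinct biological source: batch 1 had 4 FANS and 4 INTACT libraries, batch 2 had 7 and 4 in the table used here, and batch 3 had 7 and 5. ATAC-seq, which marks open chromatin by where a transposase can insert, was run on 50000 nuclei per library with 3 FANS and 3 INTACT technical replicates of 1 biological source. The libraries within a batch may be technical replicates, so p-values measure the spread between libraries and not between animals.

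Oxidative phosphorylation passes electrons from NADH through complex I, or from succinate through complex II, to complex III and then complex IV, where oxygen is reduced. The proton gradient that complexes I, III and IV build drives complex V, the ATP synthase. Most subunits are encoded in the nucleus and translated in the cytosol, and neurons are known for a high demand for the ATP made this way. None of the 13 mitochondrially encoded chain subunits is in the tables, so only the nuclear part is described.

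The promoters of 7 members are shown because the results below turn on them: Uqcrc1 and Atp5b had the lowest adjusted p-values between techniques, Atp5k and Ndufb8 were among the largest differences, Cox6b1 and Ndufs5 had some of the largest differences of the start-site peak, and Cox8b is a muscle isoform, shown beside the widely expressed members. Each is the RefSeq window of 250 bases before to 50 bases after an annotated start on GRCm38.p6, printed 5′ to 3′ on the strand of the gene. Where a gene had several windows, the most upstream one was taken. Capitals mark letters that matched a searched motif on either strand. The NRF1 motif was GCGCNTGCG, the ETS motif CCGGAAG and the YY1 motif AAGATGGC. SP1 was searched as GGGCGG, the NFY box as CCAAT and the TATA box as TATAAA. The windows lie at chr9:108936398-108936697 (plus strand, Uqcrc1), chr10:128083057-128083356 (plus, Atp5b), chr5:108434350-108434649 (minus, Atp5k), chr19:44555393-44555692 (minus, Ndufb8), chr7:30626065-30626364 (minus, Cox6b1), chr4:123718137-123718436 (minus, Ndufs5) and chr7:140900397-140900696 (minus, Cox8b).
Uqcrc1: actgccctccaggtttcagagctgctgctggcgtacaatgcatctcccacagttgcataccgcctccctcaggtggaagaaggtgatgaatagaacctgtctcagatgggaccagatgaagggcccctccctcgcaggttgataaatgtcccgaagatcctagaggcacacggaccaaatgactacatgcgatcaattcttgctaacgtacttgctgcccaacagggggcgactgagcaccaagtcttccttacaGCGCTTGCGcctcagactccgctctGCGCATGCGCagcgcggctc
Atp5b: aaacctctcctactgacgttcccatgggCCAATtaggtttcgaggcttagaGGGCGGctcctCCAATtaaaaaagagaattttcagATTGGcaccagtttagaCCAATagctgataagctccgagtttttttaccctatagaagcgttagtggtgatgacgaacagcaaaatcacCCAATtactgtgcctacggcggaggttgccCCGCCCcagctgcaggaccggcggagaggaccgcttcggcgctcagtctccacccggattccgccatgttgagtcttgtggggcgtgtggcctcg
Atp5k: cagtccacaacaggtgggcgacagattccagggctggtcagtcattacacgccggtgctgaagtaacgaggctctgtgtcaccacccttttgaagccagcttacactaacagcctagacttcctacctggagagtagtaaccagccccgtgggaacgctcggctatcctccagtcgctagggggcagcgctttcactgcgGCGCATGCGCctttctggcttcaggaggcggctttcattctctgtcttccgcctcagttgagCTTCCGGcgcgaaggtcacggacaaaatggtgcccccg
Ndufb8: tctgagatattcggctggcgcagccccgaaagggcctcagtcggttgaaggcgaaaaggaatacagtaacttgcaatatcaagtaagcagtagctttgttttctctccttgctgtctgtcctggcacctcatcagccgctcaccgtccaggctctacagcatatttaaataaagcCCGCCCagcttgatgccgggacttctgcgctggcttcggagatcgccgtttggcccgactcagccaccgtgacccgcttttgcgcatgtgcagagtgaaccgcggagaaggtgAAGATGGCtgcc
Cox6b1: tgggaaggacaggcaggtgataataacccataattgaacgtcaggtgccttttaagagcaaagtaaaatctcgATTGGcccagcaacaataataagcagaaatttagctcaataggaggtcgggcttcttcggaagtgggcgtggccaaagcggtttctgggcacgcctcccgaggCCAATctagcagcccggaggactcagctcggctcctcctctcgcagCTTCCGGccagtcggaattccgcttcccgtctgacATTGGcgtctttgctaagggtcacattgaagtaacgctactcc
Ndufs5: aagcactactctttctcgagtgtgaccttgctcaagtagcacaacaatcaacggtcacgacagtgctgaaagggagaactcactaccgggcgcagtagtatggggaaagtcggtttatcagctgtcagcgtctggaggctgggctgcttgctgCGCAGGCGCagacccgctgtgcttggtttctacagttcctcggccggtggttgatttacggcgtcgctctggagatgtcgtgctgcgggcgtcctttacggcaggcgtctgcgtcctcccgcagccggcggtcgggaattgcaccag
Cox8b: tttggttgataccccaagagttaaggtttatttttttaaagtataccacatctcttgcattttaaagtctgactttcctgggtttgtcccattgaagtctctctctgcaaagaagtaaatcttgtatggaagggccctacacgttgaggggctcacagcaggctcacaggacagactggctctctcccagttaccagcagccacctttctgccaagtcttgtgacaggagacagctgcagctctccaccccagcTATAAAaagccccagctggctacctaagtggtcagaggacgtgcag

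Counted from the start base as 0, the Uqcrc1 window held its NRF1 matches at 5 and 30, just inside the transcribed part. The Atp5k window held an NRF1 match at -50 and an ETS match at 12. Ndufb8 held a YY1 match at 38 and an SP1 match at -75. Atp5b held no NRF1, ETS or YY1 match but 5 NFY and 2 SP1 matches, and Cox6b1 held 1 ETS and 3 NFY matches. Ndufs5 held an NRF1 match at -97, and Cox8b held only a TATA match, at 4.

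Levels of the members were compared as reads per kb of exon per 1000000 gene reads, averaged over the 31 RNA libraries, which corrects for gene length and depth. The median member had a level of 14.38, and the median of the members' percentiles among all genes was 81.3. Complex V had the highest median level (22.78), followed by complex III (19.4), complex IV (17.33), complex II (14.04) and complex I (10.74). The highest single levels were those of Cox6c (56.69), a small subunit of cytochrome c oxidase, and of Atp5b (51.43), the catalytic beta subunit of the ATP synthase. Atp5h (45.73), a stalk subunit, Atp5k (38.98), a small membrane subunit, Cox7c (36.7) and Uqcrc1 (36.66), a core-forming protein of complex III, came next. In complex II, Sdha, the flavoprotein that oxidises succinate, had a level of 32.15.

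At the low end stood the isoforms that are known from other tissues. Cox7a1 (1.73) and Cox8b (0.55), which are known from striated muscle, Cox6a2 (0.24), the heart and muscle isoform, Cox4i2 (0.11), known from lung, and the testis isoforms Cox7b2 (1.21), Cox6b2 (0.27) and Cox8c (0.01) all had levels far below their common counterparts in the same complex. Ndufa4l2 had a level of 0.17. Ndufs5, which encodes a subunit of complex I, was listed at 0 in all 31 libraries; it falls outside the rule for named genes and was chosen after its values were seen. The annotation names 1 pseudogene copy of it, the part of that copy was not tested, and the 0 is not read as absence of the transcript. With a filter at a mean normalized count of 5, which is the read count divided by the library's size factor, 84 members were tested in batch 1 and 83 in each of batches 2 and 3.

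In batch 1, 36 of the 84 tested oxidative phosphorylation genes were higher in INTACT than in FANS nuclei and the other 48 did not pass the test. The limma test on log2(normalized count + 1) called these 36 (42.9%) higher in INTACT and 0 lower, at an adjusted p under 0.05, where 18.6% of all 15114 tested genes were called higher and 17.5% lower. The median member differed by 0.29 on the log2 scale (1.22-fold), against 0.01 for all genes, and 75 of 84 members had a positive difference, against 50.9% of all genes. The differences were modest: they ran from -0.93 to 0.78, and 9 members were called past 1.5-fold, where 4.03% of all genes passed upward and 3.94% downward. Every INTACT library exceeded every FANS library in 31 members (background 17.1%), and the reverse held for 1 (background 16.5%).

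**Figure D1:**
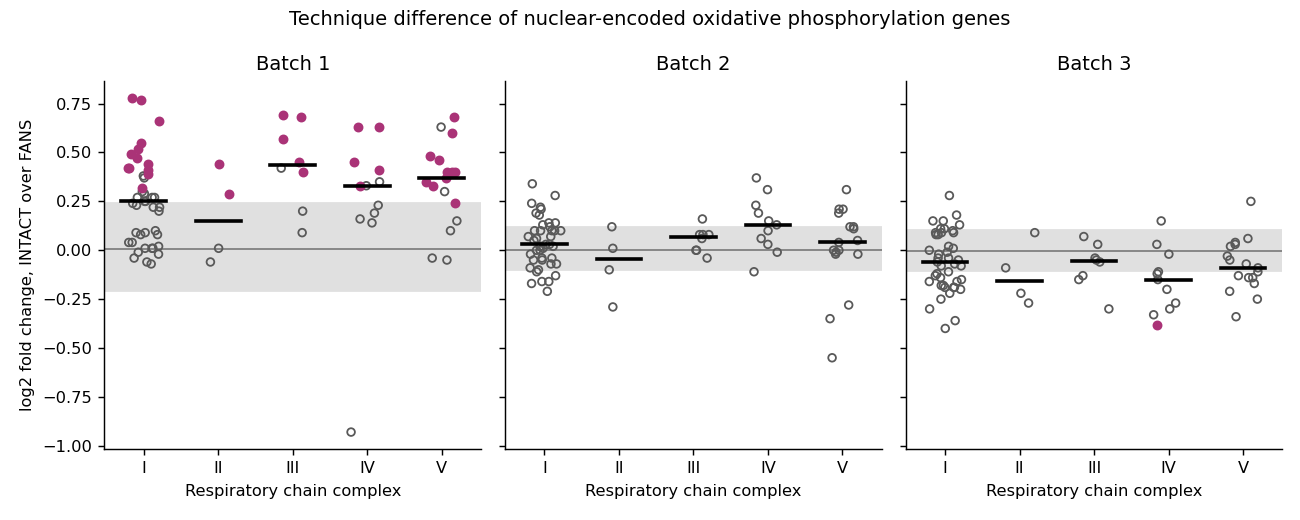
Log2 INTACT over FANS difference of each tested member in the 3 batches, by complex. Filled points were called at an adjusted p under 0.05, black bars are the medians of a complex, and the grey line and band are the median and the quartiles of all tested genes. In batch 1 the medians of the complexes lie between 0.15 and 0.44, in batch 2 between -0.04 and 0.13, and in batch 3 between -0.16 and -0.06.

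Complex I takes electrons from NADH, and 13 of its 43 tested genes rose in INTACT in batch 1, with a median difference of 0.25. Ndufaf3, an assembly factor of this complex, had normalized counts of 54.0, 74.8, 68.1 and 41.3 in the FANS libraries and of 110, 104, 100 and 87.9 in the INTACT libraries. The INTACT libraries were all above the FANS libraries, and the difference was 0.78 ± 0.16 (SE; adjusted p = 0.000464 by limma, n = 4 per technique). Ndufb8, an accessory subunit, had counts of 79.7, 99.3, 60.0 and 71.8 in FANS and of 106, 116, 135 and 130 in INTACT, with no overlap and a difference of 0.66 (adjusted p = 0.000681). Ndufa2, a small accessory subunit with an exon shared with Tmco6, rose by 0.77 (FANS 30.7 ± 7.94 SD, INTACT 52.4 ± 8.27, adjusted p = 0.00472). Of the core subunits, 4 of 7 rose, with a median difference of 0.32. Of the 7 tested assembly factors 1 rose, a share near the background of all genes, and Ndufaf5 had a difference of -0.04. Ndufa4, which carries a complex I name and is now placed in complex IV, rose by 0.55 (adjusted p = 0.00222).

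Complex II, which also works in the citric acid cycle, was split. Sdhb, the iron-sulfur subunit, had counts of 154, 134, 142 and 133 in FANS and of 164, 187, 172 and 165 in INTACT, and rose by 0.29 (adjusted p = 0.0241). This call was lost when FANS replicate 2 or INTACT replicate 2 or 3 was left out (adjusted p = 0.0521, 0.0967 and 0.0611), and with reads thinned to the shallowest library (0.0575). Sdhd, a membrane anchor, had 87.5, 77.2, 79.0 and 73.4 in FANS and 97.8, 97.1, 114 and 126 in INTACT, and rose by 0.44 (adjusted p = 0.00809, or 0.0532 without INTACT replicate 4). Sdha had 652, 614, 694 and 640 in FANS and 585, 647, 592 and 676 in INTACT, so that the groups overlapped, with a difference of -0.06 ± 0.06 (adjusted p = 0.505). Sdhc, the other anchor, differed by 0.01 (adjusted p = 0.971).

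Complex III hands electrons to cytochrome c, and 5 of its 8 genes rose, with a median of 0.44. Uqcrc1 had 426, 389, 412 and 397 in FANS and 526, 565, 557 and 576 in INTACT. These groups were far apart for their spread, with a difference of 0.45 ± 0.06 and the lowest adjusted p of any member (3.1e-06). Uqcrfs1, the Rieske iron-sulfur protein, had 127, 110, 128 and 128 in FANS and 196, 183, 177 and 179 in INTACT (difference 0.57, adjusted p = 5.85e-05); it falls outside the rule for named genes and was chosen after its values were seen. Uqcr10, a small subunit, rose by 0.68 (adjusted p = 0.000924), and here the lowest INTACT value, 122, met the highest FANS value, 122. Uqcrq rose by 0.69 (FANS 44.3 ± 11.7, INTACT 70.8 ± 10.3, adjusted p = 0.00487), with 1 INTACT library at 55.8 just under the highest FANS library at 55.9.

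In complex IV, cytochrome c oxidase, 5 of 12 tested genes rose and the median was 0.33. Cox5b had 90.0, 101, 75 and 65.7 in FANS and a narrow 130, 127, 128 and 122 in INTACT (difference 0.63, adjusted p = 0.000481). Cox8a, the ubiquitous form of subunit 8, had 69.5, 67.4, 60.0 and 45.9 in FANS and 89.1, 97.9, 106 and 83.3 in INTACT (difference 0.63, adjusted p = 0.0016). Both pairs of groups were apart. Cox4i1, the common form of subunit 4, rose by 0.45 (adjusted p = 0.00625, or 0.0515 with thinned reads), and Cox6a1 and Cox6b1 had differences of 0.35 and 0.33 that missed the threshold (adjusted p = 0.0706 and 0.155). Cox7a2 had a difference of 0.14 (adjusted p = 0.297), Cox7c of 0.16 (adjusted p = 0.212) and Cox7a2l, which joins complexes III and IV, of 0.19 (adjusted p = 0.429).

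The muscle isoform Cox7a1 was the one member whose INTACT values in batch 1 all lay below the FANS values: 5.14, 7.36, 10.9 and 10.7 in FANS against 4.33, 4.59, 2.66 and 3.97 in INTACT. Its difference of -0.93 ± 0.43 was not called (adjusted p = 0.0967), and its counts are few. Without FANS replicate 1 the difference was -1.12 and was called (adjusted p = 0.0489).

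Complex V had the highest share of calls, with 11 of 17 genes higher (64.7%) and a median of 0.37. The share was 62.5% in complex III, 50.0% in complex II, 41.7% in complex IV, 30.2% in complex I and 18.6% over all genes. Among genes spanning under 10 kb, 10 of 14 rose in complex V, 4 of 6 in complex III and 4 of 9 in complex IV. In complex I 12 of 26 such genes rose, and in complex II 1 of 1, where 29.0% of all genes of that span rose. Atp5b had 698, 665, 609 and 654 in FANS and 838, 882, 866 and 879 in INTACT (difference 0.40 ± 0.06, adjusted p = 3.65e-06). Atp5k, a membrane subunit of the part where synthase dimers form, had 88.8, 71.1, 73.6 and 79.5 in FANS and 123, 112, 153 and 118 in INTACT (difference 0.68 ± 0.13, adjusted p = 0.000157). All 4 genes of the stalk rose, 3 of 5 of the catalytic part and 2 of 3 of the c ring that turns as protons pass. The factors Atp5s and Atp5sl, which are related to subunits by name, had differences of 0.10 and -0.04. Atp5j2, another membrane subunit, rose by 0.60 (adjusted p = 0.00291).

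**Figure D2:**
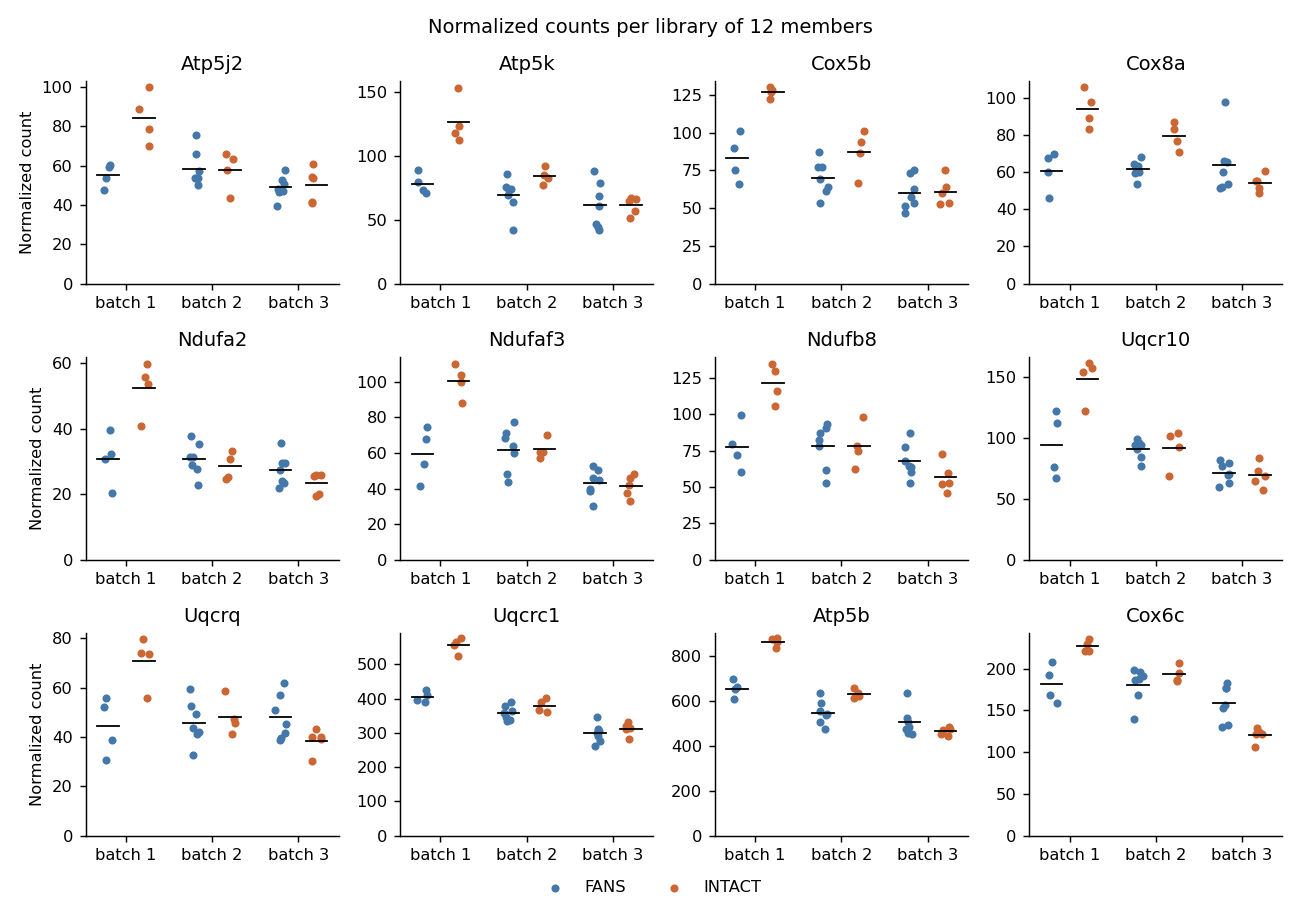
Normalized counts of 12 members in every RNA library, by technique and batch. Each point is 1 library. In batch 1, the INTACT libraries of Uqcrc1, Atp5b, Atp5k, Ndufb8, Ndufaf3, Cox5b and Cox8a lie above all FANS libraries, and in batches 2 and 3 the techniques overlap for all of these except Cox8a in batch 2.

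In batch 2, the limma test called 0 of 83 members in either direction, where 0.834% of all genes were called higher and 0.309% lower, and 0.0941% and 0.0336% past 1.5-fold. Of the members, 9 had an unadjusted p under 0.05 (15.2% of all genes did), and DESeq2 and the edgeR quasi-likelihood test on the recovered reads also called 0. The median difference was 0.05 (1.04-fold), and 54 members were positive (49.8% of all genes). The lowest FANS value of Cox8a was 53.7, the median 60.8 and the highest 68.1, and its INTACT values were 83.2, 76.7, 71.0 and 86.9. Cox8a was the 1 member whose groups were apart (difference 0.37, adjusted p = 0.125; background 1.59% of genes above and 1.4% below). Atp5b had the FANS values 476 (lowest), 543 (median) and 636 (highest) and the INTACT values 637, 658, 624 and 613, a difference of 0.21 that missed the threshold (adjusted p = 0.114). Atp5g1, which makes the c subunit, went the other way in batch 2, with a FANS range of 38.1 to 59.4 and INTACT values of 49.2, 27.5, 32.9 and 23.1 (difference -0.55, adjusted p = 0.125).

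In batch 3, 0 of 83 members were called higher and 1 lower (background 1.18% and 0.519%, and past 1.5-fold 0.0139% and 0.346%). The median difference was -0.08 (0.95-fold), 26 members were positive (48.9% of all genes), and 7 had an unadjusted p under 0.05 (13.7% of all genes). The member called was Cox6c, with a lowest FANS value of 130, a median of 156 and a highest of 183, against INTACT values of 124, 122, 106, 122 and 129. All its INTACT values lay below all FANS values (background 0.589%, and 0.997% for the reverse, which no member showed), and the difference was -0.38 ± 0.10 (adjusted p = 0.0362). The same gene had risen in batch 1 by 0.33 (adjusted p = 0.0073). The call in batch 3 was lost when any of 9 of the 12 libraries was left out, although the difference stayed between -0.34 and -0.41: FANS replicates 1, 2, 3 and 5 and each of the 5 INTACT replicates. It was also lost with no filter on low values (adjusted p = 0.057). Cox7a2 and Cox7c had differences of -0.33 and -0.30 there, and Ndufa5 of -0.40, none of which passed (adjusted p = 0.306, 0.322 and 0.226).

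Whether the difference between techniques itself differed between batches was tested by an interaction contrast over the 14332 genes tested in all batches. Between batches 1 and 2, the difference was higher in batch 1 in 4 of 83 members and lower in 0 (background 1.87% and 4.43%), with a median contrast of 0.23. Those 4 were Atp5g1 (1.01), Ndufa2 (0.88), Uqcr10 (0.69) and Uqcrc1 (0.37). The count fell to 2 without INTACT replicate 2, 3 or 4 of batch 1 and rose to 7 without FANS replicate 2 or 7 of batch 3, which share the estimate of the spread, and with scaling to the 75th percentile, an alternative added after seeing the data, it was 11. Between batches 1 and 3 it was higher in 27 and lower in 0 (background 11.2% and 12.1%), with a median of 0.34, and between batches 2 and 3 no member and no gene passed (background 0.0% and 0.0%), with a median of 0.11 for the members (2 members passed without FANS replicate 7 of batch 3). The contrasts of batch 1 with the other batches share the batch 1 libraries. By sign alone, 31 of the 83 members were positive in batches 1 and 2 and negative in batch 3, 22 were positive in batch 1 only, and 18 were positive in all 3. RNA integrity was, by the study's account, higher in the first batch than in the others, so that batch and RNA integrity cannot be told apart here.

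Summed over the 92 members, the reads per 1000000 gene reads were 1603 ± 55.8 in FANS and 1953 ± 70.3 in INTACT in batch 1 (SD, n = 4 each, ratio 1.22), and the groups did not overlap. In batch 2 they were 1691 ± 80.7 (n = 7) and 1728 ± 21.7 (n = 4), a ratio of 1.02, and in batch 3 they were 1769 ± 193 (n = 7) and 1649 ± 78.6 (n = 5), a ratio of 0.93, with overlap in both. The batch 1 ratio was 1.17 for complex I, 1.06 for complex II, 1.33 for complex III, 1.27 for complex IV and 1.29 for complex V. The FANS libraries of batch 3 spread from 1533 to 2099, and across these 7 libraries the sum fell as the share of reads outside annotated features rose (Pearson r = -0.89, exact permutation p = 0.00516, adjusted p = 0.0103; Spearman rho = -0.96, exact p = 0.00278, adjusted p = 0.00556). Leaving out the 2 libraries farthest from the median share gave r = -0.96. The same relation in the 7 FANS libraries of batch 2 gave r = -0.65 (exact permutation p = 0.11, adjusted p = 0.11) and rho = -0.29 (exact p = 0.556, adjusted p = 0.556), with r = 0.5 after leaving out 2 libraries, and it was not computed for the smaller groups. These 2 relations were computed after the values were seen.

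**Figure D3:**
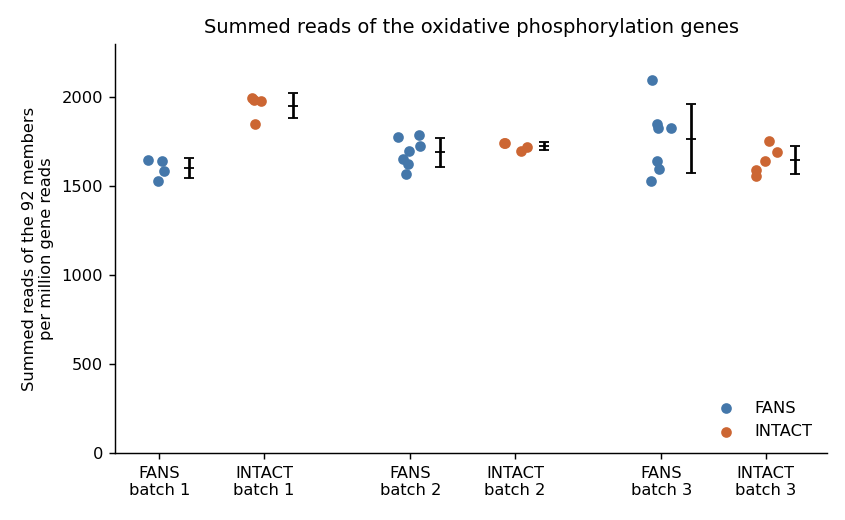
Summed reads of the 92 members per 1000000 gene reads in each RNA library (points), with the mean and SD of each group (bars). The INTACT libraries of batch 1 run from 1848 to 1997, above the FANS libraries at 1532 to 1651, and the groups overlap in batches 2 and 3.

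Of the 84 members tested in batch 1, 56 span under 10 kb, 66 have a mean normalized count of 50 to 500 and 42 have both, and calls were set beside these properties. Of the 56 tested members with a span from first to last annotated base under 10 kb, 31 rose, with a median of 0.38, where 29.0% of the 4095 genes of that span rose, with a median of 0.19. Of the 26 with a span of 10 to 50 kb, 5 rose, with a median of 0.09, where 18.2% of all genes of that span did, and 0 of the 2 longer ones rose, where 9.56% of all long genes did. Falls were called in 8.67%, 13.0% and 32.7% of all genes of these spans, from short to long, and in 0 members. Among members with a mean normalized count of 50 to 500, 33 of 66 rose (21.7% of all genes in that class), against 1 of 13 below 50 (6.35%) and 2 of 5 above 500 (27.6%). The median differences of these classes were 0.29, 0.30 and 0.08. Among protein coding genes under 10 kb with a mean of 50 to 500, 47.6% of 1796 genes rose and 4.45% fell, with a median of 0.27, while 28 of 42 members (66.7%) rose and 0 fell, with a median of 0.40. In batches 2 and 3 the members under 10 kb had medians of 0.08 and -0.09.

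**Figure D4:**
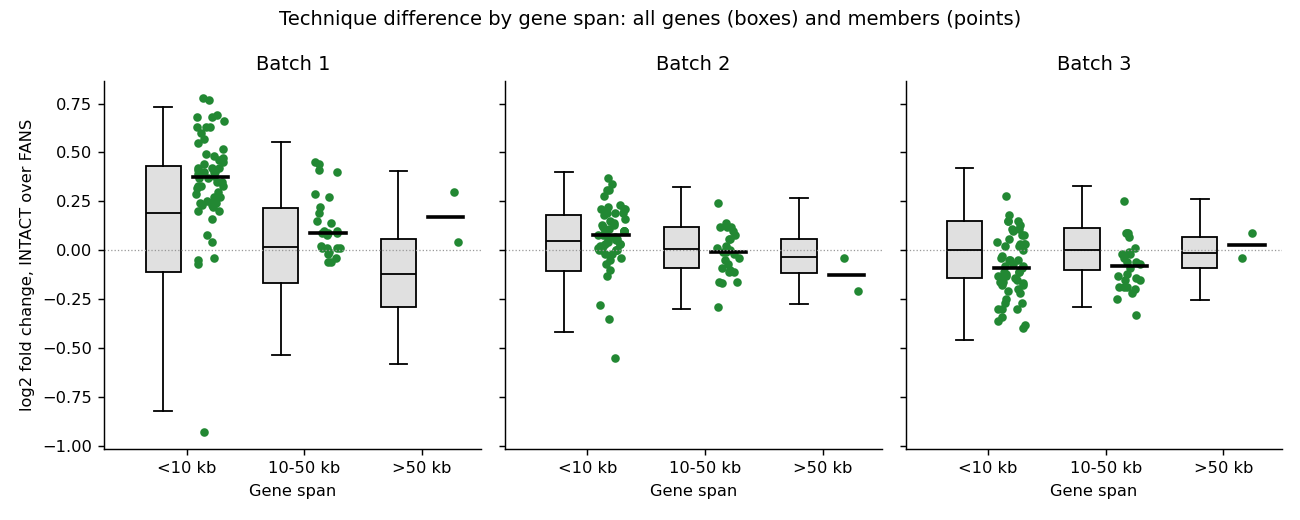
Log2 INTACT over FANS difference by gene span in the 3 batches. Boxes are the quartiles of all tested genes with whiskers at the 5th and 95th percentiles, points are members, and short bars are the members' medians. In batch 1 the members' median is 0.38 under 10 kb and 0.09 from 10 to 50 kb, against 0.19 and 0.02 for all genes.

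Exon length, shared exons and pseudogene copies were set beside the same calls. Members with under 700 bases of exon rose in 15 of 32 cases (14.9% of all genes of that length), those of 700 to 1500 in 14 of 31 (21.0%) and longer ones in 7 of 21 (18.5%). Of the 8 tested members that share an exon with another gene, such as Atp5a1 with Haus1 and Atp5j with Gabpa, 4 rose, and of the other 76, 32 rose. Of the 9 with a named pseudogene copy 3 rose, and of the other 75, 33 did. Reads from a shared exon could have been assigned to either gene or dropped. The paper kept uniquely mapped reads, so reads that mapped equally well to a near-identical copy were dropped.

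In a list of 8 chain subunits and partner proteins that the naming rule leaves out, 6 rose and 0 fell in batch 1, with a median of 0.34. These included Cyc1 (0.46, adjusted p = 0.000637), the cytochrome subunit of complex III, and Cycs (0.31, adjusted p = 0.0308), cytochrome c itself. Uqcc2 (0.55), an assembly factor of complex III, Atpif1 (0.26), the inhibitor of the ATP synthase, 2010107E04Rik (0.44) and Usmg5 (0.31) rose as well. The calls of Cycs, Uqcc2 and Usmg5 were lost in 7, 8 and 10 of the alternatives, and that of Atpif1 in 2. In a separate list of assembly factors of complexes II to V, 4 of 30 rose (13.3%) and 3 fell (10.0%), with a median of 0.08, shares below the 18.6% and 17.5% of all genes. Among 15 regulators of these genes, 1 rose (6.67%) and 5 fell (33.3%). Those that fell were Nrf1 (-0.55, adjusted p = 0.000175), Gabpb2 (-0.44), Ppargc1b (-0.38), Ppargc1a (-0.27) and Gabpb1 (-0.19, a call lost in 4 of 17 alternatives), of which Nrf1 binds promoters of respiratory genes, Gabpb1 and Gabpb2 are the partner subunits of the DNA-binding Gabpa, and the others are coactivators. Polrmt, the mitochondrial RNA polymerase, rose by 0.39 (adjusted p = 0.00033). Over all genes 17.5% fell, as did 32.7% of those with a span over 50 kb, and the regulators were not split by span.

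Other metabolic lists held these calls in batch 1, where 18.6% of all genes rose and 17.5% fell: 10 of 16 glycolysis genes rose and 2 fell (median 0.38), 9 of 20 citric acid cycle genes rose and 1 fell (0.18), and 6 of 18 mitochondrial import genes rose and 0 fell (0.18). Of 77 mitochondrial ribosomal protein genes 24 rose and 1 fell (0.19), and of 96 cytosolic ribosomal protein genes 54 rose and 6 fell (0.41). In batches 2 and 3 the calls in these lists were 2 glycolysis genes and 1 cytosolic ribosomal gene higher in batch 2 and 2 cytosolic ribosomal genes lower in batch 3. The medians of the ribosomal list were 0.05 and -0.08 there, beside 0.05 and -0.08 for the oxidative phosphorylation genes.

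Markers of glia moved with the technique as well, although the labels call the nuclei neuronal. In batch 1, 7 of 10 astrocyte markers and 7 of 10 oligodendrocyte markers rose in INTACT and 0 fell, with medians of 1.16 and 0.62. For astrocytes the summed reads on the same scale ranged over 945 to 1070 under FANS and over 1190 to 1220 under INTACT, and for oligodendrocytes over 818 to 1050 and 1380 to 1450. Of the inhibitory neuron markers 5 of 8 rose (30.3 to 43.3 against 52.9 to 58.3), and the excitatory markers summed to 1930 to 2060 and 1890 to 1970, with 3 of 10 higher and 4 lower. Vascular and microglial lists had 2 of 3 and 1 of 6 tested markers higher and 1 lower each; C1qa, Cldn5, Kcnj8 and Ly6c1 averaged under 1 normalized count, and no marker of the 6 lists was at 0 throughout. In batch 2, 5 of 10 oligodendrocyte markers rose, with sums of 1110 to 2260 and 2160 to 2640, and 2 of 9 astrocyte markers rose, while 0 members were called. In batch 3 no marker was called, and oligodendrocyte sums were 336 to 476 and 410 to 519. The part of these cells in the batch 1 result was not tested, and in bulk nuclei a different share of a cell type and a different amount of RNA per nucleus cannot be told apart.

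Depth also differed between techniques in batch 1. The FANS libraries held 4853224 to 6066759 reads in genes and the INTACT libraries 8621143 to 11028713, whereas both techniques held 5402820 to 7292908 in batch 2 and 4205665 to 5716318 in batch 3. Of all reads recorded in the batch 1 table, the share outside annotated features was 79.42% to 81.75% with FANS against 71.3% to 72.74% with INTACT. In batch 2 these shares were 79.35% to 81.56% and 77.36% to 78.89%, and in batch 3 they were 80.04% to 85.13% and 81.86% to 82.99%. With all batch 1 libraries thinned to the shallowest, an alternative added after seeing the data, 31 members rose, 30 of them among the 36, with a median of 0.27. The part of the reads outside features in the result was not tested.

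Most members had open chromatin at a start site under both techniques. A MACS2 peak lay within 1 kb of an annotated start for 87 of 92 members (94.6%) in each of the 3 FANS lists and for 84 (91.3%) in each of the 3 INTACT lists, where the share of all 24260 genes with an annotated start was 62.6%, 63.1% and 63.1% in FANS and 59.9%, 58.5% and 60.8% in INTACT. In all 6 lists 84 members had a peak (91.3%), against 56.9% of all genes and 94.1% of protein coding genes with a mean of 50 to 500. The summit lay within 250 bases of the start for 79 of these 84 (80.3% for all genes). The 5 members with no peak in any list (background 34.4%) were Cox4i2, Cox6a2, Cox7b2, Cox8c and Ndufa4l2, isoforms with levels per kb of 1.21 or less.

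The FANS lists held 123596 to 130088 peaks and the INTACT lists 99514 to 123895. With each list cut to its 99514 strongest peaks, 86, 84 and 84 members had a start-site peak in FANS replicates 1, 2 and 3. In each INTACT list 84 members then had one. The 3 members with a peak in all uncut FANS lists and in no INTACT list (background 1.47%, and 0.0948% for the reverse, which no member showed) were also isoforms known from muscle or testis. Their FANS fold enrichments over the local background, as MACS2 gives them, were low: 4.51, 2.99 and 2.8 for Cox6b2, 4.56, 3.36 and 3.39 for Cox7a1, and 3.14, 3.27 and 3.8 for Cox8b. The Cox8b summits lay at -1081, -777 and -1094 bases from the start, outside the promoter window printed above. Ndufs5, listed at 0 in every RNA library, had a start-site peak in every list, with 21.3, 22.2 and 21.6 in FANS, above the members' FANS medians, and 9.68, 10.5 and 14.8 in INTACT, below the members' INTACT medians.

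Among the 84 members with a peak in all lists, the INTACT fold enrichments all lay below the FANS fold enrichments in 60 (71.4%; background 54.8%) and above in 0 (background 1.43%), a description of 3 technical replicates per technique, for which the smallest two-sided exact p is 0.1. The median member had an INTACT over FANS ratio of 0.826, against 0.854 for all genes, with a range of 0.48 to 1.06. By list, the members' medians were 16.76, 16.83 and 17.2 in FANS and 13.41, 12.26 and 15.21 in INTACT, and INTACT replicate 3 was the nearest to FANS. Without INTACT replicate 3 the count was 79 in place of 60. Since depth is unknown and all genes shifted, each value was also divided by its list's median over all start-site peaks, an alternative added after seeing the data: then 12 members lay below (background 12.6%) and 18 above (background 29.5%), with a median ratio of 1.01.

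**Figure D5:**
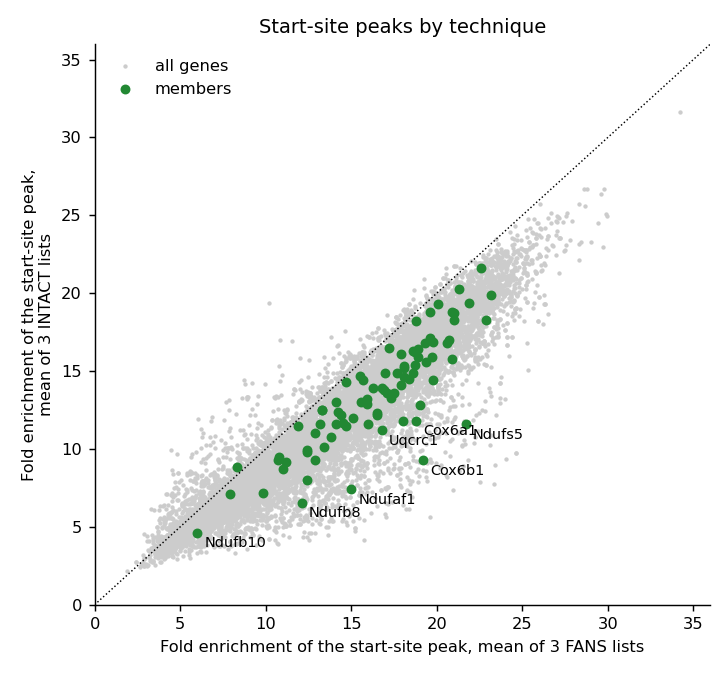
Fold enrichment of the start-site peak, mean of 3 FANS lists against mean of 3 INTACT lists, for the 13797 genes with a peak in all 6 lists (grey) and the 84 members among them (green). The dotted line marks equal values. Of the 84 members, 83 lie below the line, as do 92.8% of all genes, before division by the list medians, which moves the members' median ratio to 1.01. The members farthest below by ratio are Cox6b1, Ndufaf1, Ndufb8 and Ndufs5.

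The ratios of single members are given on the deposited values and then scaled, with each value divided by its list's median. The lowest was that of Cox6b1, a subunit on the intermembrane side of complex IV, with 19.2 ± 0.676 (SD, n = 3) in FANS and 9.27 ± 0.206 in INTACT (ratio 0.48, scaled 0.59). Ndufaf1, an assembly factor of complex I, followed with 14.2, 13.8 and 16.8 against 5.86, 6.45 and 9.93 (0.50, scaled 0.60), and Ndufb8 with 12.0, 11.7 and 12.7 against 5.86, 5.37 and 8.45 (0.54, scaled 0.65). These groups did not overlap. At the other end, Atp5d, a subunit of the catalytic part of complex V, had 8.45, 8.18 and 8.38 in FANS and 8.59, 8.02 and 9.88 in INTACT, which overlapped, and its unscaled ratio was the highest of the 84 (1.06, scaled 1.29). Atp5b had 19.3, 19.6 and 19.9 in FANS and 18.8, 17.0 and 20.6 in INTACT, with overlap as well, and its ratio lay below 1 unscaled and above 1 scaled (0.96, scaled 1.17). Ndufb10 had the weakest peak of the 84, with 5.69, 5.39 and 6.96 against 4.44, 4.16 and 5.27 (0.77, scaled 0.94). Ndufaf1, Atp5d and Ndufb10 fall outside the rule for named genes and were chosen after their values were seen.

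Over the 84 members the Spearman correlation between the mean fold enrichment of the peak and the RNA level per kb was 0.06. Between the INTACT over FANS ratio of the peak and the batch 1 RNA difference it was -0.07 over 83 members. Both are descriptions, in which the points share libraries, and the ATAC and RNA libraries were made separately. Ndufb8 and Uqcrc1, whose RNA was higher in INTACT in batch 1, had INTACT over FANS peak ratios of 0.54 and 0.67 unscaled, where 92.8% of all genes had ratios below 1, and of 0.65 and 0.82 scaled. The unscaled peak of Uqcrc1 had 16.8 ± 0.702 in FANS and 11.2 ± 0.292 in INTACT (SD, n = 3).

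Of the 92 members, 76 had a RefSeq promoter window, with the most upstream one taken where a gene had several. The NRF1 motif lay in 24 of them (31.6%), against 9.08% of the 18091 windows of table genes and 15.5% of the 5828 windows of protein coding genes with a mean of 50 to 500. YY1 lay in 10 (13.2%; 3.26% and 5.22%) and ETS in 16 (21.1%; 11.8% and 20.8%). SP1 lay in 34 (44.7%; 46.5% and 65.2%), NFY in 34 (44.7%; 39.2% and 40.2%) and TATA in 7 (9.21%; 13.0% and 6.09%). Matches on both strands were counted, and overlapping matches of one motif, such as the palindromic NRF1 core in the printed Atp5k window, were merged. A divergent gene start lay within 1 kb of 22 of the 76 member windows (28.9%), against 12.8% of the windows of table genes and 1168 of the 5828 windows of protein coding genes with a mean of 50 to 500. The members' median GC content was 57.3% (56.3% and 61.0%) and their median ratio of observed to expected CpG 0.831 (0.579 and 0.784).

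By complex, the NRF1 motif lay in 11 of 39 windows of complex I, 2 of 3 of complex II, 3 of 5 of complex III, 1 of 13 of complex IV and 7 of 16 of complex V. All 10 YY1 windows belonged to complexes I (7) and V (3). The calls of batch 1 were also counted by motif: with NRF1, 9 of 23 tested rose (median 0.30), and without it 20 of 49 (0.27). With ETS 6 of 16 rose and without it 23 of 56. With YY1 5 of 10 rose and without it 24 of 62, and with NFY 13 of 32 and without it 16 of 40. With SP1 10 of 32 rose and without it 19 of 40, and with TATA 1 of 5 and without it 28 of 67. No test was run on these counts. The 16 members without a window included Atp5a1, Cox4i1, Cox4i2, Cox6a2, Cox6c, Cox8c, Ndufa2, Ndufa4l2, Ndufaf6, Ndufb9, Ndufs1, Sdhc, Uqcrb, Uqcrc2 and Uqcrq.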

How the data were processed

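RNA libraries were aligned by the authors with STAR to mm10, freed of duplicates by molecular identifiers and counted per gene with HTSeq. The deposited values are signal: counts divided by DESeq size factors, in 1 table per batch. All of these values are whole multiples of what 1 read is worth (tolerance 0.1 read), so reads were recovered for library totals and count tests. The 5 summary rows were left out of the tests. The deposited ATAC peak lists hold fold enrichment, −log10 p-values and q-values and an integer score (10 times the −log10 q-value) from MACS2, called by the authors per library, on mm10. No read depth comes with them.

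Genes with a batch mean of at least 5 were tested with limma 3.58.1 (trend, log2(value + 1)), Benjamini-Hochberg adjusted over all tested genes. edgeR 4.0.16 and DESeq2 1.42.0 on the recovered reads, other scalings, filters, pseudocounts and leaving out each library were alternatives. The steps were tested on simulated data. Members, lists and tests were chosen with earlier results of these data known. Genes were named by this rule: members called past 1.5-fold, the lowest adjusted p in each direction per complex and batch, the 3 highest levels per kb of each complex, the Sdh genes, the tissue isoforms with their counterparts, members with no start-site peak, and called genes of the regulator and outside-subunit lists. One member that this rule names is not reported here. FANS replicate 3 and INTACT replicate 5 of batch 2 were not analysed here. Gene spans, starts and promoter windows came from RefSeq for GRCm38.p6, where 23178 symbols matched directly and 1096 by an older symbol. Intervals between libraries cover their spread only.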

Additional observations from a re-analysis of the deposited data

Results flagged for a closer look

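In 11 of the 254 groups of 4 to 7 libraries examined for a value far from the rest (chance gives about 5%), 1 library stood apart by Dixon's criterion. In FANS libraries of batch 3 these were the highest values of Atp5b (635), Cox8a (97.6), Ndufa10 (267) and Uqcrh (167) and the summed complex III reads (235.3 reads per 1000000 gene reads). All 5 are from FANS replicate 2, whose summed reads of all members were also the highest of that group. In batch 3 INTACT, Uqcrh had one value of 69.2. In batch 1, Atp5f1 had a FANS value of 300, and INTACT values that stood apart on the low side were 101 for Cox6a1, 122 for Uqcr10, 815.4 on the same scale for the summed complex I genes and 1848 for all members.

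The technique difference (INTACT over FANS, log2) differed between batches by the interaction contrast in 27 members between batches 1 and 3, of which those reported here follow, and in 4 between batches 1 and 2. Batch 1 exceeded batch 2 for Atp5g1 by 1.01, Ndufa2 by 0.88, Uqcr10 by 0.69 and Uqcrc1 by 0.37. Batch 1 exceeded batch 3 in complex I for Ndufa2 by 0.99, Ndufb8 by 0.91, Ndufaf3 by 0.83, Ndufa4 by 0.73 and Ndufa5 by 0.64, and in complex II for Sdhd by 0.72. In complex III the contrast was 0.99 for Uqcrq, 0.73 for Uqcr10, 0.62 for Uqcrfs1 and 0.39 for Uqcrc1. In complex IV it was 0.83 for Cox8a, 0.71 for Cox6c, 0.63 for Cox6a1, 0.6 for Cox5b, 0.57 for Cox4i1 and 0.46 for Cox7c. In complex V it was 0.64 for Atp5f1 and Atp5k, 0.62 for Atp5d, 0.61 for Atp5h, 0.57 for Atp5j2, 0.51 for Atp5b and 0.47 for Atp5a1.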

How the results depend on the processing

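Of the 36 members called higher in batch 1, 24 were called under all 17 alternatives for that batch, and the count ran from 28 to 37 when 1 library was left out (7 to 10 past 1.5-fold). Cox7a1 was called lower in batch 1, also past 1.5-fold, with no filter and without FANS replicate 1 (1 member each, 0 to 1 over the left-out libraries). In batch 3, 0 members were lower with no filter, 4 with the replicate block and 0 to 1 with 1 library left out. The median difference with 1 library left out ran from 0.28 to 0.34 in batch 1, 0.02 to 0.07 in batch 2 and -0.12 to -0.05 in batch 3. Members with a higher effect in batch 1 than in batch 2 numbered 11 with scaling to the 75th percentile and 2 to 7 with 1 library left out, and against batch 3 they numbered 18 to 32. Between batches 2 and 3 they numbered 0 to 2. Over all genes, batch 2 had 241 higher and 99 lower by DESeq2, 64 and 21 with no filter, 3 and 0 with the replicate block, and 17 to 257 and 4 to 74 with 1 library left out. Batch 3 had 554 and 548 with the replicate block, and 65 to 299 and 36 to 188 with 1 library left out. Batch 1 had 2302 to 2776 and 2186 to 2581. The cause of these shifts was not tested. Libraries with the same number did not deviate together over the tested genes (correlations from -0.07 to 0.11). In batch 3, however, the summed reads of all members ranked replicates 1 to 5 in the same order under both techniques. The correlations therefore do not decide whether the numbers pair the libraries. For the start-site peaks, dividing each value by its library median moved the members' median ratio to 1.01, with 12 members below (background 12.6%) and 18 above (29.5%). Undivided and without 1 ATAC library, that ratio ran from 0.78 to 0.86 and the count of members below from 60 to 79. No called RNA difference changed sign under any alternative run. The depth of the ATAC lists is unknown, and members with few reads, such as Cox7a1, could show only large differences.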
